A study of Mus musculus with 4 samples.

Results

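Arpp21, Aqp11, Ets2, Tctex1d1, Insl5, Chrna9, Tubb2b, Prodh and Slc7a11 are 9 of the 21926 genes in the single-cell count tables of 2 mouse thymus libraries, and they were taken here as identity genes of the CD4+CD8+ double-positive (DP) stage. They were matched by symbol, and they had been chosen by their measured levels over thymocyte clusters in these same libraries. Their high level in DP thymocytes is therefore the choice itself and is given below as a description with no test. Levels are given as counts of unique molecular identifiers (UMIs) per 1000000 UMIs summed over a class of barcodes (CPM).

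The WT library was made from the thymus of 1 Eif4g2-flox mouse (Eif4g2 flox/flox, no Cre), and the Eif4g2 cKO library from 1 CD4-Cre; Eif4g2-flox/flox mouse. Both mice are labelled female, 5 weeks old and batch 1, and both carry the floxed Eif4g2 alleles. Cre is driven by the Cd4 promoter, which is first active as thymocytes become DP, so cells of earlier stages and non-T cells would keep the floxed alleles intact. With 1 mouse per genotype, genotype cannot be told apart from mouse or library, no test between genotypes was possible, and every interval below is a 95% interval for counting error only. The libraries held 6014 and 4335 barcodes with 18355050 and 18056277 UMIs, and the median barcode held 1732.5 UMIs in WT and 2140 in Eif4g2 cKO. Eif4g2 itself, a translation initiation factor, had 223 CPM over the WT library and 274 CPM over the other, which does not check the deletion because 3′ tags can come from the part of the transcript that stays. Uty, Kdm5d and Eif2s3y, which lie on the Y chromosome, together had 2542 UMIs in the WT library and 1 UMI in the Eif4g2 cKO library, although the label of both is female.

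DP thymocytes arise when double-negative (DN) thymocytes that made a T cell receptor beta chain divide and then turn on CD4 and CD8. The cells then leave the cell cycle, turn on the recombinase genes Rag1 and Rag2 again and rearrange the receptor alpha chain, and most die unselected. Those that receive a receptor signal pass positive selection, lose the DP program and mature into CD4 or CD8 single-positive (SP) cells. Resting DP thymocytes are small cells with little RNA, and barcodes given this label were the largest class in both libraries.

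The genes have unrelated known products. Insl5 encodes a relaxin-family peptide hormone, and Chrna9 a subunit of nicotinic acetylcholine receptors. Aqp11 is an aquaporin of the endoplasmic reticulum, and Slc7a11 the cystine/glutamate antiporter that brings in cystine for glutathione. Prodh is the mitochondrial proline dehydrogenase that starts proline breakdown. Arpp21 is a cAMP-regulated phosphoprotein with an RNA-binding R3H domain, and Ets2 an ETS-family transcription factor. Tctex1d1 belongs to the Tctex-type dynein light chains, and Tubb2b is a beta-tubulin.

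Upstream sequence is shown first for 4 of the genes, because these are metabolic and receptor genes with short motifs of thymocyte or stress-response factors before their starts. The RefSeq promoter table of GRCm38.p6 (250 bases before to 50 after a start) held 17 promoters of 8 of the 9 genes, with no entry for Tubb2b. Each stretch runs 5′ to 3′ on the gene's strand, stops where annotated exon sequence begins, and has motif matches in capitals, apart from the general E box CANNTG, whose matches were left in lower case unless they are CAGCTG.
Slc7a11: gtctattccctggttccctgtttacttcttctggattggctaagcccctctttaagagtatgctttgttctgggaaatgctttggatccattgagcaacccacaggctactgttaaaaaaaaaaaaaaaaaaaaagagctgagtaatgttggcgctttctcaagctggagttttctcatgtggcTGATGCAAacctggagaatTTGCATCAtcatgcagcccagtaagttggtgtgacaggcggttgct
Chrna9: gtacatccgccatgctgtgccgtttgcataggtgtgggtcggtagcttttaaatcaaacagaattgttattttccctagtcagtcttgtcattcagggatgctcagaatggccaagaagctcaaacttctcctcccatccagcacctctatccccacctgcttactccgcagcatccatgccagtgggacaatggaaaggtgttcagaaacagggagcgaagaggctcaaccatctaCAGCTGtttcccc
Prodh: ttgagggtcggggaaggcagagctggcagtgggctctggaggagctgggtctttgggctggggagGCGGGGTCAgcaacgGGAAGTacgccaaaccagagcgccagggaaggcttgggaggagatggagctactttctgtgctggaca
Aqp11: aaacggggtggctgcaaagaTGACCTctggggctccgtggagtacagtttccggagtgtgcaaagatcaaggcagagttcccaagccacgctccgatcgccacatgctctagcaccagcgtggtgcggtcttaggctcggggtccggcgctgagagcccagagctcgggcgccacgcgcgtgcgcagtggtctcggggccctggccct

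The Slc7a11 stretch is chr3:50443615-50443863 on the minus strand. It holds the letters TGATGNAA, the element that the stress-response factor ATF4 binds with a CEBP partner, once on each strand. Of all 32851 promoters in the table, 3.97% held this motif on either strand and 23, or 0.0700%, held it at least 2 times. The Chrna9 stretch, chr5:65966874-65967123 on the plus strand, holds CAGCTG, an E box form that reads the same on both strands and was in 16.3% of all promoters. Every CAGCTG is also a CANNTG, the general E box, which 72.3% held. The Prodh stretch, chr16:18089293-18089440 on the minus strand, holds GGAAGT, an ETS motif found in 23.8%, and on its other strand TGACNNNGC, an NRF2 element found in 12.4%. The Chrna9 and Prodh stretches precede RefSeq starts that lie inside the annotated spans of these genes given below. The Aqp11 stretch, chr7:97738290-97738497 on the minus strand, holds AGGTCA, a nuclear receptor core site, on its other strand, and 16.3% of promoters held it. Of the remaining motifs searched on both strands, TGTGGT (RUNX) was in 16.8% of promoters and TTCAAAG (TCF and LEF) in 5.14%. None of the 8 motifs was in the promoters of all 8 genes. The most widespread was CANNTG, in 6 of 8 genes, beside 74.99% of all 27025 genes with a promoter. AGGTCA was in 3 of 8, beside 18.13% of all genes. Arpp21 has several of the 17 promoters, which gives it more chances of a match, so these counts are descriptions. A match is a description of letters in the window and says nothing of binding.

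The 9 genes lie on 7 chromosomes, and their spans run from 3.72 kb for Tubb2b to 551 kb for Slc7a11. Arpp21, at chr9:112065091-112235938 on the minus strand, spans 171 kb and contains Mir128-2 on the same strand. The mature miRNA is shown because it is the further product of the most abundantly counted locus, with its seed, bases 2 to 8, in capitals.
miR-128-3p: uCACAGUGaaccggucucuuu
Small RNAs were not measured in these libraries.

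Tctex1d1 and Insl5 are neighbours. Tctex1d1 lies on the plus strand at chr4:102978606-103005594 and Insl5 on the minus strand at chr4:103017872-103026842, so that their 3′ ends face each other across 12.3 kb. Prodh, at chr16:18060357-18090203 on the minus strand, overlaps Dgcr6 on the plus strand, and since the strand setting of the counting is not given in the sources used here, reads of the shared stretch cannot be told apart. Tubb2b, at chr13:34126748-34130466, is 48.7 kb from its near-identical copy Tubb2a, so its counts are uncertain where reads could match both. Aqp11 is at chr7:97724006-97738289, Ets2 at chr16:95702075-95721051, Chrna9 at chr5:65934921-65977326 and Slc7a11 at chr3:49892526-50443614, all in GRCm38, the build named for these data as mm10.

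Barcodes were grouped into classes by clusters that were built without the 9 genes, and each class name is a short form of DP-like, DN-like and so on, given from marker genes. Resting DP thymocytes were 3344 barcodes in WT and 2074 in Eif4g2 cKO, or 56.7% and 48.2% of the T lineage, with medians of 1404.5 and 1360.5 UMIs. Summed over this class, Cd4 was at 1318 and 1558 CPM, Cd8a at 1340 and 1678 CPM and Rag1 at 975 and 1025 CPM, so the markers of the label were present in both libraries. Different clusters held the class in the 2 libraries. One cluster held 3041 of the WT barcodes and 167 of the Eif4g2 cKO barcodes, and another held 303 and 1907. Markers of antigen-presenting cells summed to 349 and 328 CPM in resting DP barcodes with 1 and 2 of 15 markers at 0, and erythroid markers summed to 274 and 16.1 CPM with Alas2 at 0 in Eif4g2 cKO. B cell markers summed to 55.9 and 74.6 CPM, thymic epithelium markers to 13.7 and 14.6 CPM and fibroblast markers to 0 and 0.293 CPM.

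The T lineage classes besides resting DP were DN (96 barcodes in WT and 130 in Eif4g2 cKO), S phase (801 and 891), G2 and mitosis (185 and 408), early post-selection (724 and 585) and mature SP (691 and 202). A small class of natural killer T (NKT) or gamma delta T barcodes held 56 and 15. S phase and mitotic barcodes were not split into DN and DP, since their clusters were defined by cycle genes. In both libraries 8 of the 9 genes had their highest level among T lineage classes in resting DP, beside 30.8% of the 8861 genes with at least 200 UMIs. This count is what the genes were chosen for, and nothing is read from it. The exception was Tubb2b.

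Arpp21, the gene with the most UMIs of the 9, followed a course of decline, return and decline over the classes. In WT it stood at 697 CPM in DN, 518 in S phase, 892 in G2 and mitosis, 1785 in resting DP, 258 in early post-selection and 134 in mature SP. In Eif4g2 cKO the values were 215, 179, 388, 759, 128 and 70 CPM. The classes kept the same order in both libraries, and only DN and S phase in Eif4g2 cKO and the lowest levels in WT, mature SP and NKT or gamma delta T, had overlapping intervals between neighbours. In DN its WT level was 2.56-fold (2.33 to 2.83) below resting DP. Antigen-presenting barcodes, which should lack Arpp21, stood at 366 CPM (289 to 458) in WT and 436 CPM (285 to 639) in Eif4g2 cKO. The DN level was above theirs in WT and below theirs in Eif4g2 cKO. The DP markers summed to 3652 and 6846 CPM in antigen-presenting barcodes, against 13388 and 13116 CPM in resting DP. Their Arpp21 level is therefore no measure of background, and the source of these counts was not tested.

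Aqp11, the water channel, was counted at 399 CPM in WT DN and 308 CPM in Eif4g2 cKO DN, against 695 CPM (673 to 718) and 456 CPM (433 to 479) in resting DP. In S phase it was at 206 and 147 CPM, in G2 and mitosis at 454 and 296 CPM, in early post-selection at 216 and 147 CPM and in mature SP at 54.7 and 54.3 CPM. The DN level did not differ from that of G2 and mitosis beyond the intervals in either library. In antigen-presenting barcodes Aqp11 was at 171 CPM (120 to 237) in WT and 285 CPM (166 to 457) in Eif4g2 cKO. The DN level was above this level in WT and not distinguishable from it in Eif4g2 cKO.

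Chrna9, the receptor subunit, stood at 76.3 CPM in DN, 86.8 in S phase, 199 in G2 and mitosis, 741 in resting DP, 158 in early post-selection and 70.3 in mature SP of WT. In Eif4g2 cKO it stood at 61.4, 50.2, 114, 579, 120 and 71.2 CPM over the same classes. Resting DP was thus 3.73-fold above the next T lineage class in WT and 4.82-fold above it in Eif4g2 cKO. Antigen-presenting barcodes had more Chrna9 than that next class, at 233 CPM (172 to 308) in WT and 386 CPM (245 to 579) in Eif4g2 cKO.

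Insl5 was the sparsest of the genes and the most concentrated. Of its 588 UMIs in WT, 86.9% were in resting DP barcodes, which held 29.0% of all UMIs. In Eif4g2 cKO 69.0% of 232 UMIs were in this class, which held 18.9% of all UMIs. Its level was 96.2 CPM (88.0 to 105) in WT resting DP and 46.8 CPM (39.9 to 54.7) in Eif4g2 cKO, while mature SP held 8 and 1 UMIs, at 2.90 and 1.21 CPM. DN was the next T lineage class in both libraries, at 24.4 CPM (13.6 to 40.2) and 9.69 CPM (4.43 to 18.4) from 15 and 9 UMIs. S phase, with 3.66 and 4.07 CPM, lay at the level of mature SP within the intervals. Antigen-presenting barcodes had Insl5 at 19.0 CPM (5.18 to 48.7) in WT and 50.3 CPM (10.4 to 147) in Eif4g2 cKO, from 4 and 3 UMIs. Rxfp4, which encodes the known receptor of the Insl5 peptide, had 0 UMIs in resting DP of either library.

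Slc7a11 and Prodh, the transporter and the mitochondrial enzyme, differed in where they were next highest. Slc7a11 was at 21.1 and 8.62 CPM in DN, 34.3 and 17.9 in S phase, 112 and 49.5 in G2 and mitosis, 263 and 158 in resting DP, 35.5 and 18.8 in early post-selection, and 21.7 and 19.3 in mature SP (WT and Eif4g2 cKO in turn). Prodh was at 39.0 and 28.0 CPM in DN, 16.3 and 11.4 in S phase, 26.1 and 14.3 in G2 and mitosis, 115 and 59.4 in resting DP, 14.3 and 9.03 in early post-selection, and 10.5 and 9.66 in mature SP. The T lineage class after resting DP was G2 and mitosis for Slc7a11 and DN for Prodh in both libraries. The Prodh values carry the overlap with Dgcr6, whose own level was 214 and 189 CPM in resting DP.

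Ets2, the transcription factor, was counted at 340 CPM in WT resting DP and 271 CPM in Eif4g2 cKO, with 37.4 and 35.5 in DN, 86.3 and 50.5 in S phase, 154 and 111 in G2 and mitosis, 78.4 and 58.3 in early post-selection, and 48.6 and 48.3 in mature SP. Tctex1d1 was counted at 297 and 243 CPM in resting DP, 58.5 and 30.2 in DN, 26.5 and 16.6 in S phase, 59.7 and 44.2 in G2 and mitosis, 66.2 and 52.8 in early post-selection, and 27.2 and 20.5 in mature SP. Among these classes the lowest levels of Tctex1d1 were those of S phase and mature SP, and those of Ets2 were DN and mature SP, in each case with overlapping intervals. In WT the NKT or gamma delta T class was lower still, at 19.0 CPM (5.19 to 48.8) for Tctex1d1 and 28.6 CPM (10.5 to 62.2) for Ets2. Its intervals overlapped those of the next class.

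Tubb2b did not have the pattern of the other genes. In WT it was highest in G2 and mitosis, at 378 CPM (339 to 420), above resting DP at 311 CPM (296 to 326). In Eif4g2 cKO the order was the other way round, 190 CPM (173 to 208) in G2 and mitosis and 217 CPM (202 to 234) in resting DP, and the intervals overlapped. With a clustering resolution of 0.6 or 1.6, with each library clustered alone, with the 9 genes allowed among the variable genes or with a stricter cell filter, all 9 genes were highest in resting DP, so the order of these classes for Tubb2b changed with where the classes were cut. Its level in S phase was 121 and 69.5 CPM, and in DN 32.5 and 24.8 CPM. Over the 13 combinations of class and library with at least 20 barcodes, its levels had the lowest correlations with those of the other members, r = 0.42 with Prodh and 0.56 with Insl5, while the closest pair was Ets2 and Slc7a11 with r = 0.98. These points share 2 libraries and one pattern of choice, and the correlations are descriptions.

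**Figure D1:**
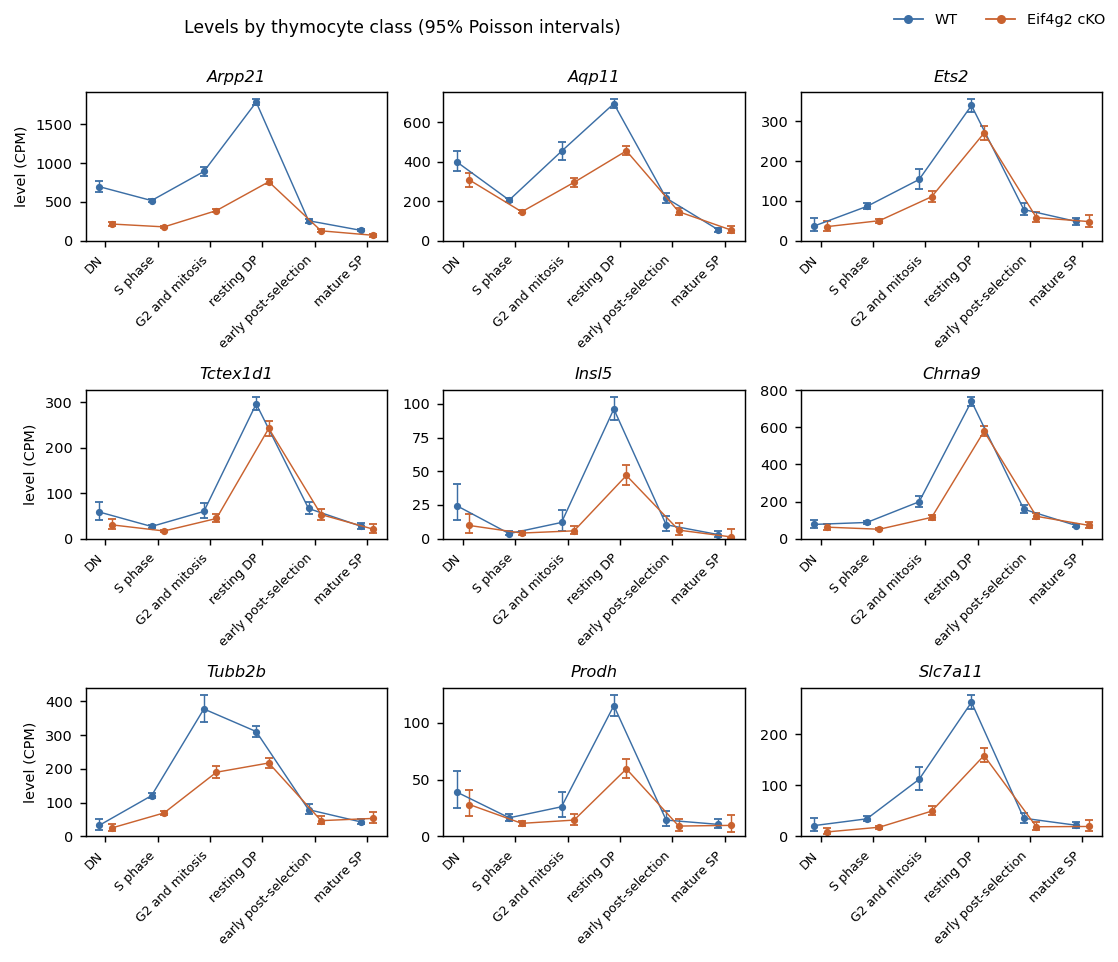
Level of each gene in CPM (vertical axis, starting at 0, own scale per gene) in 6 T lineage classes from DN to mature SP (horizontal axis), with WT and Eif4g2 cKO as separate points and bars for 95% counting intervals; lines between classes are a guide to the eye. All panels peak at resting DP except Tubb2b in WT, which is at 378 CPM in G2 and mitosis and 311 CPM in resting DP, and the WT points lie above the Eif4g2 cKO points in resting DP for all 9 genes.

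From resting DP to early post-selection, all 9 genes were lower by more than 1 on the log2 scale in both libraries. Of all genes, 9.38% of 8593 in WT and 9.12% of 7719 in Eif4g2 cKO were. The genes were chosen for being high at the DP stage, which bears on this difference too, so the counts are a description. The median difference of the 9 was -2.23 in WT, from -3.23 for Insl5 to -1.68 for Aqp11, and -2.27 in Eif4g2 cKO, from -3.08 for Slc7a11 to -1.63 for Aqp11. The 17 other DP genes listed from textbook knowledge, such as Rag1 and Cd8a, had medians of -1.52 and -1.57, and all genes -0.16 and -0.25. From early post-selection to mature SP, Aqp11 was lower again by 1.98 (1.70 to 2.27) on the log2 scale in WT and by 1.44 (0.97 to 1.94) in Eif4g2 cKO. Over the same step in WT, Ets2 was lower by 0.69 (0.32 to 1.06), Insl5 by 1.82 (0.49 to 3.27), Tubb2b by 0.89 (0.51 to 1.27) and Slc7a11 by 0.71 (0.14 to 1.27), while Prodh was at -0.45 (-1.31 to 0.44). In Eif4g2 cKO, where mature SP held 1 to 44 UMIs of each, the intervals of these 5 genes included 0.

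Between genotypes, all 9 genes had a lower CPM in the Eif4g2 cKO library in resting DP barcodes, although Slc7a11 was at 0.02 once centred on genes of the same span, and 6 of the 9 were lower by more than 0.5 on the log2 scale. Over all genes with enough UMIs, 29.3% of 8867 were lower by that much and 8.31% were higher. None of the 9 was higher. The median log2 ratio of Eif4g2 cKO over WT was -0.61 for the 9 and -0.18 for all genes. Since the median of all genes was below 0 too, a ratio below 0 by itself is no result about the 9. These ratios are between 2 mice.

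Arpp21 had the largest difference, 1785 CPM (1749 to 1821) from 9483 UMIs in WT against 759 CPM (730 to 789) from 2594 UMIs in Eif4g2 cKO, or -1.23 (-1.30 to -1.17) as a log2 ratio. Insl5 was next with 511 and 160 UMIs and a log2 ratio of -1.04 (-1.30 to -0.78), and Prodh, with 612 and 203 UMIs, had -0.95 (-1.19 to -0.72). Slc7a11 followed with -0.73 (-0.88 to -0.59), Aqp11 with -0.61 (-0.70 to -0.52), and Tubb2b with -0.51 (-0.64 to -0.39). The remaining genes were within 0.5 of no difference. Chrna9 had -0.36 (-0.43 to -0.28), Ets2 -0.33 (-0.45 to -0.21) and Tctex1d1 -0.29 (-0.41 to -0.17), and each of these intervals was below 0.

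Other DP genes had ratios on either side of 0. Of the 17 other DP genes, 5 were lower by more than 0.5 and 0 were higher, with a median of -0.31. The share lower was that of all genes, 29.3%, so the count is no result about these genes. The lower ones were Themis (-1.14), a signalling protein needed for positive selection, Tcf12 (-1.05), an E protein, Bcl6 (-0.76), Bcl2l1 (-0.67), which encodes the survival factor Bcl-xL, and Ets1 (-0.60). Cd8a at 0.32, Cd8b1 at 0.28, Cd4 at 0.24 and Rag2 at 0.34 had ratios above 0, and Rag1 was at 0.07 (0.01 to 0.13). The resting DP barcodes of the Eif4g2 cKO library thus had more coreceptor RNA and less RNA of the 9 genes in CPM than those of WT.

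**Figure D2:**
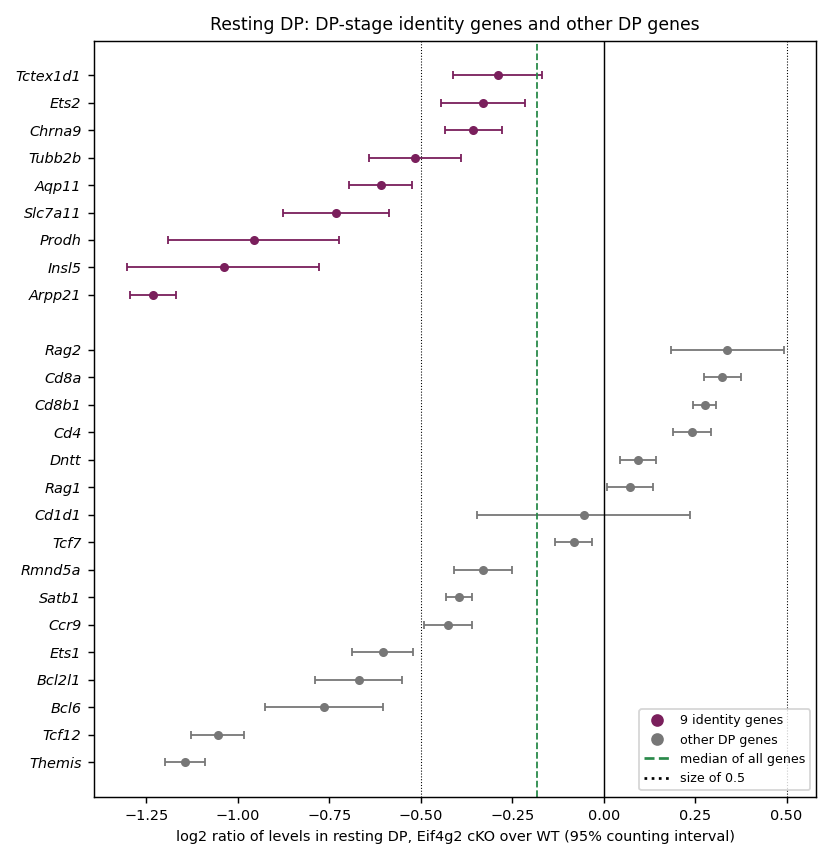
Log2 ratio of Eif4g2 cKO over WT in resting DP barcodes (horizontal axis) for the 9 identity genes and 16 of the 17 other DP genes (rows), with bars for 95% counting intervals, a dashed line at the median of all genes and dotted lines at 0.5 on either side of 0. All 9 identity genes lie below 0 as uncentred CPM ratios, from -1.23 for Arpp21 to -0.29 for Tctex1d1, while the other DP genes run from -1.14 for Themis to 0.34 for Rag2.

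The ratio moved with the length of genes in these libraries. In resting DP barcodes the median log2 ratio was 0.20 for genes spanning up to 5 kb, 0.06 for 5 to 20 kb, -0.22 for 20 to 50 kb, -0.49 for 50 to 100 kb and -0.75 for genes over 100 kb. Arpp21 with 171 kb and Slc7a11 with 551 kb are in the last class. Set against the median of genes of the same span, Slc7a11 was at 0.02 and Arpp21 at -0.48. Insl5 at 8.97 kb, Aqp11 at 14.3 kb and Tubb2b at 3.72 kb are short, and relative to genes of their span their ratios were larger in size than the raw ones, with Tubb2b at -0.71. The part that span plays in the ratios was not tested.

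**Figure D3:**
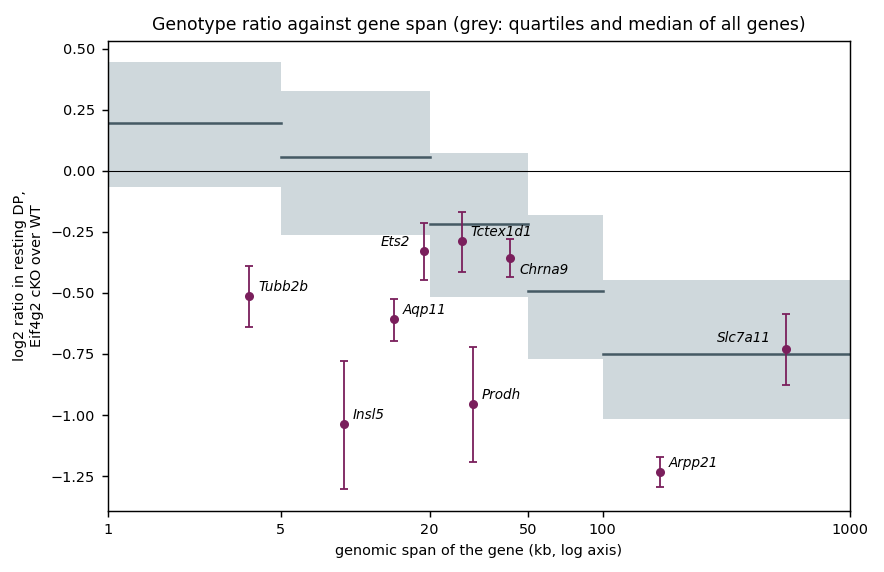
Log2 ratio of Eif4g2 cKO over WT in resting DP barcodes (vertical axis) against gene span in kb (horizontal axis, log scale), with the 9 genes as points with 95% counting intervals and, in grey, the median and quartiles of all genes of each span class. The grey medians run from 0.20 at up to 5 kb to -0.75 over 100 kb, and Slc7a11 lies on the median of its class while Arpp21, Insl5, Tubb2b, Prodh, Aqp11 and Ets2 lie below the quartiles of theirs.

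Centring on the median of all genes left 4 of the 9 lower by more than 0.5 and 0 higher, beside 19.8% of all genes lower and 16.6% higher. Centring on genes of the same span also left 4 lower, beside 13.7% of 8702 genes lower and 12.1% higher. Of all genes past 0.5, 77.9% were lower before centring, 54.3% after centring on the median of all genes and 53.3% after centring on genes of the same span. The cluster that held most WT barcodes and the one that held most Eif4g2 cKO barcodes were also compared within themselves, as a choice made after the values were seen. In the first, with 3041 and 167 barcodes, Arpp21 was at -0.36 (-0.50 to -0.22), Insl5 at -1.86 (-3.08 to -0.87) from 8 UMIs in Eif4g2 cKO, Aqp11 at -0.76, Tubb2b at -0.80 and Chrna9 at 0.00024, and 3 of the 9 were lower by more than 0.5, beside 19.7% of 8126 genes. In the second, with 303 and 1907 barcodes, Arpp21 was at -0.84 (-0.98 to -0.71), Insl5 at -1.23, Prodh at -1.07, Tubb2b at -0.71 and Tctex1d1 at 0.13 (-0.17 to 0.46), and 6 of the 9 were lower by more than 0.5, beside 20.7% of 7051 genes. Insl5, Aqp11 and Tubb2b were lower by more than 0.5 in both clusters. The share of all genes lower in both was not taken, so this overlap is a description only. Among all genes past 0.5, 56.5% were lower in the first cluster and 60.4% in the second.

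The same ratio was taken in the other classes for the members with enough UMIs. In S phase 7 of 9 were lower by more than 0.5, beside 38.5% of all genes, and Arpp21 was at -1.53 (-1.62 to -1.45). In G2 and mitosis 6 of 8 were, beside 31.2%, with Tubb2b at -0.99 (-1.19 to -0.79) and Slc7a11 at -1.18 (-1.57 to -0.78). In early post-selection 4 of 7 were, beside 34.9%, and in mature SP 1 of 7 was, beside 37%. That 1 was Arpp21, at -0.94 (-1.36 to -0.53), while Aqp11, Ets2 and Chrna9 lay at -0.01, -0.01 and 0.02 with intervals of about 0.5 on either side.

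The DN class gave 2 of 6 members lower by more than 0.5, beside 26.6% of all genes. Arpp21 was at 697 CPM (632 to 766) in WT DN and 215 CPM (187 to 247) in Eif4g2 cKO DN, which is -1.69 (-1.94 to -1.45) on the log2 scale, and Tctex1d1 was at -0.96 (-1.72 to -0.20). In DN barcodes genes over 100 kb had a median of -0.88. Cd4 itself was at 86.1 and 56.0 CPM in DN. The part of genotype, mouse, library and gene span in the Arpp21 difference was not tested.

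In single resting DP barcodes the 9 genes were seen in varying combinations. Each barcode was thinned to 1000 UMIs so that depth was the same. The median barcode then held UMIs of 3 of the 9 genes in WT and of 2 in Eif4g2 cKO, and no barcode held more than 7. A barcode with none of the 9 was found in 2.36% of cases in WT (79 of 3344) and 10.1% in Eif4g2 cKO (209 of 2074), and 5 or more genes were seen in 8.40% and 3.13%.

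**Figure D4:**
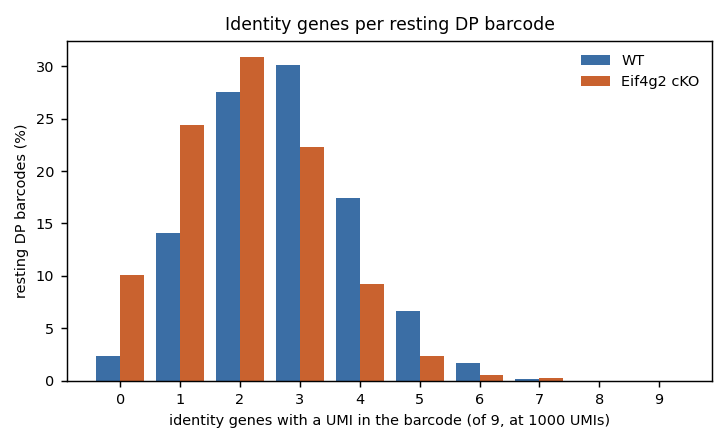
Share of resting DP barcodes in percent (vertical axis, from 0) by the number of the 9 genes with a UMI after thinning to 1000 UMIs (horizontal axis), as bars for WT and Eif4g2 cKO. The WT bars are tallest at 3 genes (30.1%) and the Eif4g2 cKO bars at 2 genes (30.9%), and the bar for 0 genes is 2.36% in WT and 10.1% in Eif4g2 cKO.

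Arpp21 was detected in 76.6% (75.1 to 78.0) of thinned WT resting DP barcodes and 48.5% (46.3 to 50.6) of Eif4g2 cKO ones. Without thinning the shares were 85.8% and 61.9%. In mature SP barcodes, which should have shut the DP program, 9.84% and 5.45% had a UMI after thinning, and in antigen-presenting barcodes, which should lack it, 32.8% and 26.9%, with median depths before thinning of 1955 and 1799 UMIs. Chrna9 was detected in 47.3% and 40.5% of resting DP barcodes, 5.35% and 5.94% of mature SP and 19.4% and 34.6% of antigen-presenting barcodes. Aqp11 was detected in 43.8% and 35.2% of resting DP barcodes, 3.76% and 3.96% of mature SP and 16.4% and 26.9% of antigen-presenting barcodes. The shares in resting DP exceeded those of mature SP for each of these genes in both libraries.

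The less often detected genes had the same order of resting DP, antigen-presenting and mature SP barcodes, with exceptions. These were Tubb2b in both libraries and Insl5 in Eif4g2 cKO. In resting DP, Ets2 was detected in 26.8% and 23.0%, Tctex1d1 in 22.7% and 21.4%, Tubb2b in 20.2% and 14.9%, Slc7a11 in 19.5% and 14.0%, and Prodh in 9.78% and 5.21% of barcodes. In mature SP the shares of Ets2, Tctex1d1, Slc7a11 and Prodh ran from 0 to 5.45%, and in antigen-presenting barcodes from 3.85% to 15.4%. Tubb2b was detected in 3.76% and 4.46% of mature SP barcodes and in 2.99% and 26.9% of antigen-presenting ones. In G2 and mitosis its shares were 33.0% and 15.7%, above those of resting DP.

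Insl5 was detected in 6.64% (5.82 to 7.54) of WT and 3.81% (3.03 to 4.72) of Eif4g2 cKO resting DP barcodes. In mature SP it was seen in 1 of 691 barcodes, or 0.145%, and in 0 of 202, where a limit of 3 counts allows a share of up to 1.49%. In the Eif4g2 cKO library 3 of 26 antigen-presenting barcodes, or 11.5% (2.45 to 30.2), had an Insl5 UMI and 26.9% (11.6 to 47.8) had a Tubb2b UMI. These intervals include the shares of resting DP. In that library the antigen-presenting intervals included the resting DP shares of all the genes except Arpp21. The per-barcode shares of all but Arpp21 by themselves thus cannot be told apart there from those of antigen-presenting barcodes. In WT the same held for Insl5, at 1.49% (0.0378 to 8.04) in antigen-presenting barcodes, and for Prodh, at 5.97% (1.65 to 14.6). In WT Insl5 had the most uneven counts over barcodes of the 9 genes, with a variance of 1.79 times the mean. Of the 3344 WT barcodes, 1.88% had at least 2 of its UMIs after thinning.

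Counts of the genes had correlations near 0 from barcode to barcode. The 36 pairs had a median r of 0.007 in WT, from -0.046 to 0.054, and of 0.013 in Eif4g2 cKO, from -0.054 to 0.049. At these counts per barcode a weak correlation is no finding, and independence of the genes cannot be read from it. Barcodes with a Rag1 UMI had a slightly higher sum of the 9 genes than those without, by 0.13 (0.09 to 0.18) on the log2 scale in WT and 0.12 (0.04 to 0.19) in Eif4g2 cKO. For Rag2 the difference in WT was -0.01 (-0.08 to 0.06). Barcodes with a UMI of Cd69 or Itm2a, genes of receptor signalling, had a lower sum by 0.37 (0.19 to 0.55) in Eif4g2 cKO, from 118 barcodes, and a difference of -0.07 (-0.19 to 0.04) in WT, from 156 barcodes. These splits were chosen after values were seen.

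Sub-clusters of the resting DP barcodes, built in each library without the 9 genes, differed more in Insl5, Tubb2b, Prodh, Ets2 and Tctex1d1 than in Chrna9 and Aqp11. Over 11 sub-clusters of WT, the highest level was 3.08 times the lowest for Insl5 (175 against 56.8 CPM), 2.64 times for Tubb2b and 1.43 times for Chrna9. Over the 6 sub-clusters of Eif4g2 cKO with at least 50 barcodes, it was 2.87 times for Prodh, 2.48 times for Insl5, 2.17 times for Arpp21 and 1.42 times for Chrna9. Sparser genes carry more counting error in such ranges. The sum of the 9 genes varied by 1.22 times in WT and 1.39 times in Eif4g2 cKO.

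A sub-cluster with Lgals1, which encodes galectin-1, among its leading genes was found in each library. It held 534 barcodes in WT and 429 in Eif4g2 cKO, and in it Tubb2b was higher than in the other resting DP barcodes by 0.60 (0.42 to 0.78) on the log2 scale in WT and 0.81 (0.60 to 1.03) in Eif4g2 cKO. Insl5 was higher by 0.74 (0.42 to 1.04) in WT, with 0.40 (-0.09 to 0.88) in Eif4g2 cKO. Arpp21 was lower there by 0.41 and 0.60, Ets2 by 0.45 and 0.49 and Tctex1d1 by 0.48 and 0.83. Tubb2a, one of the leading genes of the WT sub-cluster, was higher by 0.76 and 0.56, Rag1 was lower by 0.40 and 0.27, and Cd4 by 0.30 and 0.55. The sub-clusters were chosen after their values were seen, and the Eif4g2 cKO one was deeper, with a median of 2301 UMIs against 1280. Mki67, a marker of dividing cells, was at 11.9 CPM in it in WT and 11.5 CPM in Eif4g2 cKO, against 13.2 and 24.9 CPM in the other resting DP barcodes. Hist1h2ap, a histone gene of replicating cells, was higher in it by 0.41 (0.20 to 0.61) in WT and 0.33 (0.15 to 0.50) in Eif4g2 cKO, and the part of the cell cycle in these differences was not tested.

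**Figure D5:**
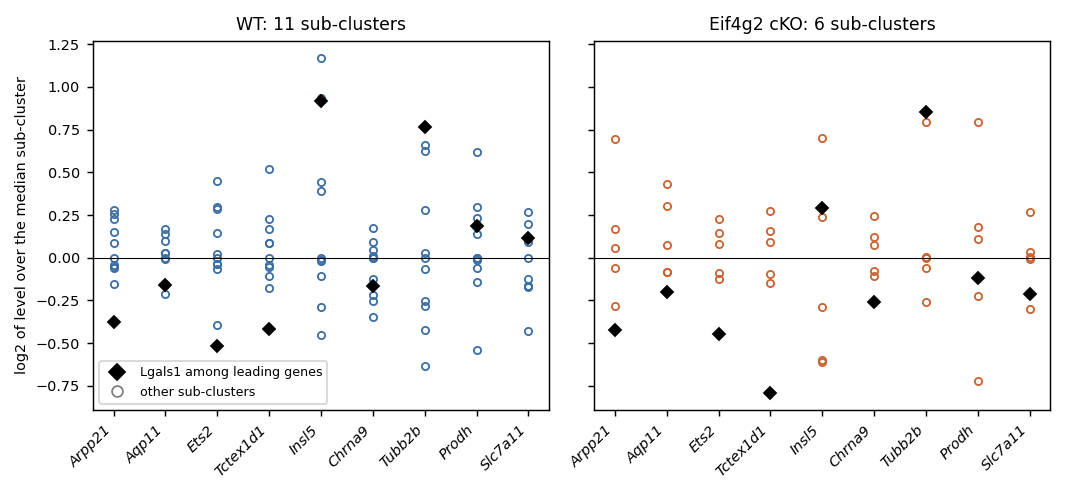
Log2 level of each gene in each resting DP sub-cluster of at least 50 barcodes over the median sub-cluster of its library (vertical axis), by gene (horizontal axis) with WT and Eif4g2 cKO apart; diamonds mark the sub-clusters with Lgals1 among their leading genes. The diamonds are the highest points for Tubb2b and the lowest for Arpp21, Ets2 and Tctex1d1 in both libraries among those plotted.

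Depth within resting DP barcodes moved with the same genes. In 3 equal groups of barcodes from low to high UMIs, Tubb2b was at 268, 253 and 368 CPM in WT, and in Eif4g2 cKO at 147, 173 and 274 CPM. Ets2 was at 350, 297 and 221 CPM and Tctex1d1 at 321, 270 and 192 CPM over these groups in Eif4g2 cKO, while in WT Tctex1d1 was at 313, 291 and 292 CPM. The Lgals1 sub-cluster of WT was no deeper than the other WT barcodes, with a median of 1344 against 1418 UMIs, and had the same directions for Tubb2b, Ets2 and Tctex1d1. Whether depth sets the values in Eif4g2 cKO was not tested.

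Over the classes, the genes with the profile most like the mean profile of the 9 were Cyp11a1 (r = 0.99), which encodes the enzyme that starts steroid synthesis, Slc16a5 (0.98), a monocarboxylate transporter, and Hibadh (0.97), an enzyme of valine breakdown. Among those that followed, with r from 0.96 to 0.95, were Plxdc1, Mprip, Mr1, Dhrs3, Ilvbl and Arl5c, over 8852 genes and 13 points. Cyp11a1 was sparse, at 20.9 and 13.5 CPM in resting DP and 0.725 CPM in WT mature SP. Arl5c was at 833 and 534 CPM in resting DP. Mr1, which encodes the molecule that presents ligands to MAIT cells, was at 79.4 and 65.0 CPM in resting DP and 9.06 CPM in WT mature SP. The points are few and share libraries, and no shared control is read from them.

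Over resting DP barcodes, the 10 genes of highest correlation with the summed 9 genes were Themis, Tcf12, Skap1, Bcl2l1, Aff3, Sh3kbp1, Zbtb20, Uvrag, Satb1 and Foxp1. Their r values were low, at most 0.084 in WT and 0.125 in Eif4g2 cKO, a size that is no finding.

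The neighbours of some of the genes had the same profile over classes. Wdr78, 11.2 kb beyond Insl5, was at 213 and 87.2 CPM in resting DP and 26.1 CPM in WT mature SP, with r = 0.92 to the mean profile. Tctex1d1, Insl5 and Wdr78 are adjacent, and in WT each was higher in resting DP than in DN, early post-selection and mature SP. Tctex1d1 and Insl5 were chosen for such levels, and 30.8% of all genes were highest in resting DP. No shared control is read from this. Sgip1, 4.98 kb on the other side of Tctex1d1, had 114 and 16 UMIs in resting DP. Rhoh, 38.2 kb from Chrna9, encodes a GTPase of T cell receptor signalling and was at 729 and 561 CPM in resting DP and 256 CPM in WT mature SP, with r = 0.89. Erg, an ETS factor gene 115 kb from Ets2, went the other way, with 84.4 CPM in WT DN and 0 UMIs in resting DP of both libraries, and Clns1a, 3.21 kb from Aqp11, was at 125 and 139 CPM with r = 0.47. Other neighbours had r = 0.80 for Dgcr6, 0.69 for Tubb2a and 0.68 for Pdcd6ip. Lower values were 0.40 for Pak1, 0.33 for Noct, -0.22 for Psmg1 and -0.34 for Psmg4.

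The relatives of the 9 genes had mixed patterns, and with few genes per list the counts are descriptions. Of 8 tubulins with enough UMIs, 0 were highest in resting DP in both libraries, beside 30.8% of all genes. Tubb2a had a ratio between genotypes of -0.72 (-0.88 to -0.55), as Tubb2b had a negative one, and Tuba1b of 0.68, with Tubb5 at 0.12 and Tuba1a at 0.19. Of 12 ETS genes, 4 were highest in resting DP, namely Fli1, Elf2, Elf4 and Elk1, a share near the 30.8% of all genes. Of the 12, 7 were lower by more than 0.5 in Eif4g2 cKO and 0 higher, beside 29.3% of all genes lower and 8.31% higher, among them Ets1 at -0.60 and Fli1 at -1.24. The list's median was -0.57, and several of its genes are long, such as Fli1 with 121 kb and Etv6 with 234 kb.

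Around Slc7a11, 1 of 10 genes of cystine uptake and glutathione was highest in resting DP in both libraries, beside 30.8% of all genes. It was the lipid peroxidase gene Gpx4, at a ratio of 0.38. Slc3a2, which encodes the partner chain of the Slc7a11 transporter, had 701 and 409 UMIs in resting DP and a ratio of -0.14 (-0.32 to 0.04). Of this list 1 gene was lower, Gclc at -0.55, and 1 was higher, Gsr at 0.83, beside 29.3% and 8.31% of all genes. Of 6 measured ATF4 target genes, 0 were highest in resting DP in both libraries, beside 30.8% of all genes. Of these 6, 1 was higher in Eif4g2 cKO, Ddit4 at 0.67, beside 8.31% of all genes. Asns, a target of ATF4 that encodes asparagine synthetase, had 0 UMIs in resting DP of both libraries.

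Of 7 proline metabolism genes, 1 was highest in resting DP, P4ha1, beside 30.8% of all genes. Of these 7, 2 were higher in Eif4g2 cKO, Oat at 0.90 and Pycrl at 0.57, beside 8.31% of all genes. Aldh4a1, the enzyme that follows Prodh in proline breakdown, had 118 and 63 UMIs and a ratio of -0.27 (-0.73 to 0.19). For Insl5, 3 of 14 genes of the relaxin and insulin families and their receptors had enough UMIs. They were the receptor genes Insr at -1.11 and Igf1r at -0.75, both highest in resting DP, and Insl6 at 0.64. Of all genes, 30.8% were highest in resting DP, 29.3% were lower by more than 0.5 and 8.31% higher, so nothing is read from 3 genes. For Chrna9, 0 of 16 nicotinic receptor genes had 50 UMIs in resting DP, and Chrna10, the usual partner subunit of Chrna9, had 0 UMIs. For Aqp11, 4 of 9 other aquaporin genes had a UMI at all and 0 had 50. Of 5 Tctex-type dynein light chains, 1 was highest in resting DP, Dynlt1b, beside 30.8% of all genes. Of these 5, 4 were higher in Eif4g2 cKO, beside 8.31% of all genes, among them Dynlt1b at 1.30 and Dynlt1f at 0.53. The Dynlt1 genes are near-identical copies and their counts are uncertain. Of 5 Arpp and R3H genes, R3hdm1, R3hdm2 and R3hdm4 were highest in resting DP, beside 30.8% of all genes. Between genotypes R3hdm1 was at -0.90, R3hdm2 at -0.58 and Arpp19 at 0.01, and 29.3% of all genes were lower by more than 0.5.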

How the data were processed

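Thymocytes were profiled by droplet single-cell RNA-seq (DNBelab C4, 3′ tags), 1 library per genotype. The authors deposited UMI counts per gene and barcode, aligned to mm10. The aligner and strand setting are not given in the sources used here. The oligo libraries held no values. Barcodes with at least 50 genes and at most 10% mitochondrial UMIs were kept (6012 and 4335). Counts were scaled to 10000, and 2000 variable genes without the 9 members, 30 components and 20 neighbours were clustered jointly at resolution 1 (scanpy 1.11.5, leidenalg 0.10.2). Clusters were named from fixed marker lists. Scrublet called 0 doublets and was read as having failed, so doublets were kept. Barcode names are running numbers, so barcodes shared between libraries could not be counted.

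Counts were summed per class. Levels carry exact Poisson, shares Clopper-Pearson and ratios exact conditional binomial intervals (scipy 1.17.1), for counting error only. A ratio between genotypes needed at least 50 UMIs over both libraries in a class. The scripts were tested on simulated data. Gene identifiers matched GENCODE M21 for 97.5% of genes.

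The members and lists were chosen with earlier results of these data known. Named were the 9 members, the 10 genes most like them over classes (at least 200 UMIs) and over barcodes, the nearest annotated genes, the 5 highest and 5 lowest ratios in resting DP (at least 100 UMIs in 1 library), and, from fixed lists, the genes of highest UMI count and those past 0.5. A few genes of these are not reported here. Alternatives changed the filter, resolution, variable genes, joint clustering, cycle filter, thinning, mean, centring and minimum UMIs.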

Additional observations from a re-analysis of the deposited data

How the results depend on the processing

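With 1 mouse per genotype, no test and no leaving out of replicates was possible. No paired analysis was possible because each genotype has 1 library. Over 8 other settings for cells, classes and depth, 8 to 9 genes were highest in resting DP. Over 10 settings, which add centring and the minimum of UMIs, 4 to 6 were lower by more than 0.5 in Eif4g2 cKO and 0 were higher. Of their other values 163 moved by less than their interval and 44 by more. Leaving out resting DP barcodes with any cycle-gene UMI gave 1350 genes lower in all, against 2602, from fewer barcodes (569 and 337), and a median share of WT barcodes with a member UMI of 28.3%, against 30.6%. Thinning to 1000 UMIs gave medians of 22.7% in WT and 21.4% in Eif4g2 cKO (29.6% unthinned). Centring on all genes gave a member median of -0.43 and 1475 genes higher, against 737, and a minimum of 200 UMIs gave 421. Of the settings chosen after seeing the data, the first cluster alone gave 3 members lower, a median of -0.39, 1598 genes lower and 1231 higher, with Chrna9 at 0.00024. The second cluster alone gave 1457 genes lower and Tctex1d1 at 0.13. Centring on genes of the same span gave a median of -0.48, 1196 genes lower and Slc7a11 at 0.020. Why the values moved was not tested. Barcodes occurring in both libraries could not be left out, because their names are running numbers. At a resolution of 0.6, and with WT clustered alone, the DN barcodes were named S phase, and the stricter filter left no S phase class.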

Other observations

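In resting DP barcodes the genes with the lowest ratios of Eif4g2 cKO over WT were the Y-linked Uty, Eif2s3y and Kdm5d, with 550, 514 and 226 UMIs in WT and 0 in Eif4g2 cKO, followed by the hemoglobin genes Hbb-bt at -5.02 (-8.09 to -3.13) and Hba-a2 at -4.24 (-5.20 to -3.41). The highest were Arf6, a small GTPase, at 2.04 (1.84 to 2.25) with 267 and 707 UMIs, Rpl22l1, the paralog of a ribosomal protein, at 1.97 (1.81 to 2.13), the endoplasmic reticulum chaperone gene Hyou1 at 1.72 (1.31 to 2.14), the mRNA export factor gene Alyref at 1.63 (1.31 to 1.95) and Cntn4 at 1.62 (1.12 to 2.14). None of the 9 identity genes was among these.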
